A study of Mus musculus with 9 samples.

Results

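The genes examined were 10 that shape and clear mitochondria: Mfn1, Mfn2 and Opa1 of fusion, Dnm1l, Fis1 and Mff of fission, and Pink1, Bnip3l, Fundc1 and Bcl2l13 of mitophagy. They were chosen by name from the 55401 genes of the count table, and each name matched 1 gene. All 10 passed the filter on low counts, which left 16762 genes. The libraries were RNA-seq of primary neonatal mouse ventricular myocytes (NMVMs), wild-type C57BL/6J cells isolated from mice that were 1 day old, with 3 libraries per group. Control cultures stayed in normoxia in complete DMEM with 10% FBS. Hypoxia cultures spent 6 h in a chamber sealed with an oxygen-absorbing AnaeroPack, in DMEM that lacked glucose and serum. Hypoxia + rSRGN cultures had the same chamber and medium with recombinant serglycin, a secreted proteoglycan, added. Both hypoxic groups therefore differed from control in oxygen, glucose and serum, which cannot be told apart, and the labels do not say whether replicates were separate isolations, so the p-values measure the spread between these libraries, which may be technical.

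Mitochondria are in constant exchange: fusion joins neighbouring organelles and mixes their contents, and fission divides them. The mitofusins MFN1 and MFN2 are GTPases that tether and fuse outer membranes, and OPA1 fuses inner membranes and holds the cristae in shape. The dynamin-related GTPase DRP1, the product of Dnm1l, constricts the organelle after it is recruited by adaptors of the outer membrane such as MFF and, in part, FIS1. Mitophagy delivers damaged mitochondria to lysosomes. The kinase PINK1 marks depolarised organelles, whereas BNIP3L (NIX), FUNDC1 and BCL2L13 are receptors that bind the autophagosome directly. Heart muscle depends on this turnover because mitochondria fill much of each myocyte, and Bnip3 and Bnip3l are known as genes that low oxygen can induce.

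The windows around the annotated start sites were searched for 3 short motifs, to describe the sequence at the promoters of the genes examined. RefSeq (GRCm38.p6) gave windows of 250 bases before to 50 bases after a start for 9 of the 10 genes, with no entry matched for Bnip3l. For each gene the window nearest to the deposited 5′ end was used, and both strands were searched. The core of the hypoxia response element (ACGTG) stood in 1 of the 9 windows, that of Mfn2, and in 19.6% of all 32817 windows. The core bound by NRF1 (GCNTGCGC), a regulator of nuclear genes for mitochondrial proteins, stood in 3 of the 9, those of Opa1, Pink1 and Bcl2l13. It stood in 9.95% of all windows. Mfn2, Dnm1l, Fis1 and Mff also had windows further from the deposited 5′ end, which these counts leave out and the shares of all windows include. Among them, the Mfn2 window with its start 205 bases from that end held an NRF1 core, and the Mfn2 window at 43 bases held ACGTG. The motif of the oestrogen-related receptors (AAGGTCA) stood in 0 of the 9 and in 4.72% of all windows. The letters searched for can also occur by sequence composition alone, and a match here is a description of the sequence. Those of the 9 nearest windows that hold a match are shown. That of Fis1, the gene with the highest level per kilobase of exon in hypoxia, is shown too and holds none. Each runs 5′ to 3′ from 250 bases before the start site to 10 bases after it, with motif matches in capitals.
Mfn2 (chr4:147904689-147904948, minus strand): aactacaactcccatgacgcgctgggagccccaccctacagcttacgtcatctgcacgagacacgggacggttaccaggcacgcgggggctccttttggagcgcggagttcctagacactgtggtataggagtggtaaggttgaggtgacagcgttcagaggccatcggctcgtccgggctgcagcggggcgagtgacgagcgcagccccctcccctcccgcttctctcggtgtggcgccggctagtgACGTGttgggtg
Opa1 (chr16:29579084-29579343, plus strand): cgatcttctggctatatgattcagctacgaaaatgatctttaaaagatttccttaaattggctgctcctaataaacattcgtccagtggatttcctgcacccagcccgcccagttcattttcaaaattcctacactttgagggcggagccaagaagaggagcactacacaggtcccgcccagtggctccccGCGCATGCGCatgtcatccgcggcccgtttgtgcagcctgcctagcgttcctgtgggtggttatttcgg
Pink1 (chr4:138326287-138326546, minus strand): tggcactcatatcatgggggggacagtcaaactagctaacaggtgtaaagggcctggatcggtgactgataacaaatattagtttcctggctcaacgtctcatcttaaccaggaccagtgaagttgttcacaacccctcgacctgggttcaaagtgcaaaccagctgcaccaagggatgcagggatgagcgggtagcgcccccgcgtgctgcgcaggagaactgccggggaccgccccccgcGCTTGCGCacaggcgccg
Bcl2l13 (chr6:120835980-120836239, plus strand): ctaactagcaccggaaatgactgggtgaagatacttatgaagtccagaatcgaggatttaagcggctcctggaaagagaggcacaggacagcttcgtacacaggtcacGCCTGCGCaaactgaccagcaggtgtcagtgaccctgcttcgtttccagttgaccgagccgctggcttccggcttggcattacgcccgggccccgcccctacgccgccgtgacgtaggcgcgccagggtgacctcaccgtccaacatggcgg
Fis1 (chr5:136953025-136953284, plus strand): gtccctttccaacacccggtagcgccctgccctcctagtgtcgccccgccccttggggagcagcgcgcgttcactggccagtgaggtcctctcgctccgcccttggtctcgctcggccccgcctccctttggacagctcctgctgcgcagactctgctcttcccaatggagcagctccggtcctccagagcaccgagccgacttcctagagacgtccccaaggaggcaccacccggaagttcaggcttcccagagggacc
The Mfn2 match begins 2 bases before the start site and runs across it. The Opa1 window has 2 overlapping matches on opposite strands, beginning 59 and 57 bases before the start. The Pink1 match begins 8 bases before the start and the Bcl2l13 match 142 bases before it.

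Total counts were 21669017 to 22781557 per library in control, 16583985 to 18148474 in hypoxia and 16640239 to 20826701 in hypoxia + rSRGN. Libraries of one group differed by more than sampling noise, with a chi-square per degree of freedom of 3.63 to 13.14, so none was counted as a repeat of another. The highest values, 13.14 and 12.71, were those of hypoxia replicate 2 with replicates 1 and 3, which gave 6.68 with each other. The labelled cell type was present in control, where the 20 cardiomyocyte markers summed to 60900 to 73930 CPM, counts relative to the scaled total of each library. That sum was far lower in the hypoxic groups. In hypoxia it was 5054 to 7889 CPM and in hypoxia + rSRGN 10360 to 11000 CPM. Hypoxia had all 20 of these markers called lower, at a median of -3.58 on the log2 scale. By the same rule for calls, given below, 25.1% of all tested genes were called lower in hypoxia and 26.4% higher. Of 15 fibroblast markers 12 were called higher, and their summed level was 11820 to 13920 CPM in control, 23100 to 25850 in hypoxia and 26010 to 27050 in hypoxia + rSRGN. Of 12 tested macrophage markers 11 were called lower, from a sum of 235.5 to 252.3 CPM in control to 25.6 to 29.0 in hypoxia and 30.5 to 35.8 in hypoxia + rSRGN. Markers of other cell types showed no common direction. Of 10 endothelial markers 1 was called higher and 6 lower, although their sum was 286 to 313 CPM in control, 508 to 584 in hypoxia and 589.8 to 592 in hypoxia + rSRGN. Of 8 smooth muscle markers 1 was called in each direction, and they summed to 1683 to 1995 CPM in control, 2285 to 2566 in hypoxia and 2076 to 2217 in hypoxia + rSRGN. The 10 erythroid genes were near 0, with 8 to 23 counts in all per library. In such bulk libraries, fewer cells of a type and less RNA per cell cannot be told apart, and the part that cell make-up had in the values below was not tested.

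In hypoxia the fusion genes were 2.83 to 7.96-fold lower than in control, while the fission genes ranged from 1.83-fold lower to 1.20-fold higher and the mitophagy genes from 4.55-fold lower to 1.13-fold higher. Calls required an adjusted p below 0.05 in edgeR's quasi-likelihood test (Benjamini-Hochberg adjustment over all 16762 genes) and a fold change of at least 1.5. By this rule 6 of the 10 genes were called lower (Mfn1, Mfn2, Opa1, Dnm1l, Pink1 and Bcl2l13), against 25.1% of all tested genes. Called higher were 0 of the 10, against 26.4% of all tested genes. DESeq2 also called 0 higher, and at an unadjusted p below 0.05 in edgeR's test 1 was higher, against 38.1% of all tested genes. The wider rule of the adjusted p alone took in smaller differences. By it 8 were lower and 1, Fis1, was higher, where all tested genes gave 34.1% and 36.8%. The 3 hypoxia libraries lay wholly below the 3 control libraries for the same 8 genes and wholly above them for Fis1, against 35.3% and 37.7% of all tested genes. The median log2 fold change of the 10 genes was -1.004, against 0.054 for all tested genes.

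**Figure D1:**
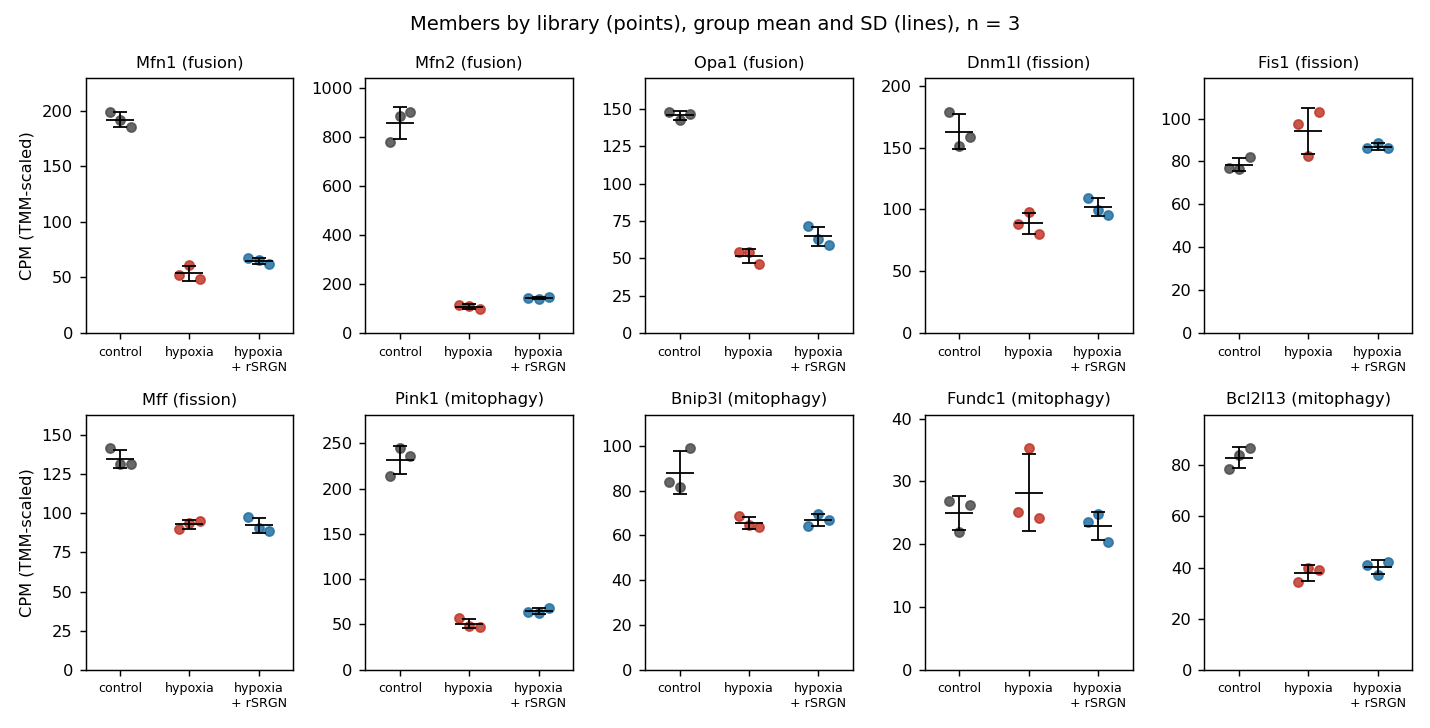
Each panel plots 1 gene, with CPM of the TMM-scaled libraries on the vertical axis from 0 and the 3 groups on the horizontal axis. Points are libraries and lines the group mean and SD (n = 3). Control points stand far above both hypoxic groups for Mfn2, Pink1, Mfn1 and Opa1, whereas the control points of Fis1 lie just below the others and those of Fundc1 lie among them.

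Mfn2 had the highest level of the 10 genes in control and the deepest difference. The gene (ENSMUSG00000029020.13, chr4:147873599-147904704, minus strand, 20 merged exon blocks) was at 779, 885 and 902 CPM in the 3 control libraries, 114.8, 111.5 and 96.1 CPM in hypoxia and 141.8, 139.5 and 148.7 CPM in hypoxia + rSRGN. The 3 groups did not overlap, and the gap between control and either hypoxic group was far wider than the spread within any of them. Mfn2 fell by 2.99 on the log2 scale in hypoxia (SE 0.085, adjusted p = 7e-18 in edgeR's quasi-likelihood test).

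Mfn1 (ENSMUSG00000027668.13, chr3:32529465-32579239, plus strand, 18 exon blocks), the mitofusin with the stronger tethering activity, was at 199.3, 191.9 and 185.3 CPM in control and at 52.0, 61.4 and 48.2 CPM in hypoxia. In hypoxia + rSRGN it was at 67.4, 65.4 and 62.0 CPM, just above the highest hypoxia library. Its difference between hypoxia and control was -1.83 (SE 0.084, edgeR adjusted p = 1.24e-14). Opa1 (ENSMUSG00000038084.16, chr16:29579334-29654884, plus strand, 30 exon blocks) was at 148.1, 142.3 and 146.5 CPM in control, 54.4, 53.9 and 46.2 CPM in hypoxia and 71.6, 63.0 and 59.2 CPM in hypoxia + rSRGN. The control libraries of this inner membrane GTPase lay within a few CPM of each other, and the groups did not overlap. The log2 fold change of Opa1 in hypoxia was -1.50 (SE 0.084, edgeR adjusted p = 3.86e-13).

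Among the fission genes, Dnm1l was called lower, Mff was lower by less than the fold limit and Fis1 was slightly higher. Dnm1l (ENSMUSG00000022789.15, chr16:16312230-16358959, minus strand, 22 exon blocks) was at 179.2, 151.4 and 158.5 CPM in control and at 88.5, 97.7 and 80.5 CPM in hypoxia, with no overlap. Its log2 fold change was -0.88 (SE 0.085, edgeR adjusted p = 5.16e-09). Mff (ENSMUSG00000026150.14, chr1:82724890-82752394, plus strand, 12 exon blocks) was at 141.6, 131.3 and 131.5 CPM in control and at 89.9, 94.0 and 95.1 CPM in hypoxia. The groups were apart here too, but the log2 fold change of -0.54 (SE 0.071, edgeR adjusted p = 6.45e-07) lay just inside the fold limit of 0.585 on this scale. Fis1 (ENSMUSG00000019054.13, chr5:136953275-136966234, plus strand, 8 exon blocks) was at 77.0, 76.5 and 81.9 CPM in control and at 97.2, 82.3 and 103.2 CPM in hypoxia. The lowest hypoxia library exceeded the highest control library by less than 1 CPM, and the log2 fold change was 0.26 (SE 0.080, edgeR adjusted p = 0.00566), under the fold limit. Fis1 is thus the member whose direction was opposite to that of Dnm1l and Mff by the adjusted p.

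Among the mitophagy genes, Pink1 and Bcl2l13 were called lower, and Bnip3l and Fundc1 were not. Pink1 (ENSMUSG00000028756.12, chr4:138313409-138326307, minus strand, 8 exon blocks) was at 214.2, 244.5 and 236.5 CPM in control, 56.9, 48.4 and 47.3 CPM in hypoxia and 63.4, 62.4 and 68.4 CPM in hypoxia + rSRGN. After Mfn2 it had the deepest difference of the 10, -2.19 on the log2 scale (SE 0.084, edgeR adjusted p = 6.49e-16), and its groups did not overlap. Bcl2l13 (ENSMUSG00000009112.4, chr6:120836212-120892842, plus strand, 7 exon blocks) was at 78.6, 83.9 and 86.7 CPM in control and at 34.5, 40.0 and 39.2 CPM in hypoxia. This receptor was 2.19-fold lower, a log2 fold change of -1.13 (SE 0.085, edgeR adjusted p = 6.38e-11). Of its exon bases 6.91% lie over exons of Bid on the opposite strand, a gene with 3973 counts over the 9 libraries, and no strand option was used in counting.

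Bnip3l and Fundc1, the receptors usually tied to low oxygen, had the smallest differences among the mitophagy genes. Bnip3l (ENSMUSG00000022051.15, chr14:66985239-67008877, minus strand, 10 exon blocks) was at 83.8, 81.5 and 98.9 CPM in control and at 68.9, 64.6 and 63.9 CPM in hypoxia. Its libraries did not overlap, with a log2 fold change of -0.42 (SE 0.081, edgeR adjusted p = 8.65e-05) that stayed under the fold limit. Fundc1 (ENSMUSG00000025040.13, chrX:17556564-17572325, minus strand, 7 exon blocks) was at 26.9, 21.9 and 26.2 CPM in control and at 25.1, 35.2 and 24.1 CPM in hypoxia. The groups overlapped, and hypoxia replicate 2 alone stood above the control libraries. The log2 fold change of 0.17 (SE 0.129, 95% interval -0.096 to 0.44, edgeR adjusted p = 0.238) became -0.022 when that library was left out, and 0.305 with upper quartile factors (edgeR adjusted p = 0.0318). Exons of Dnm1l, Mff and Pink1 overlap other annotated genes over 4.67%, 2.0% and 6.7% of their bases, and those neighbours had at most 145 counts over the 9 libraries.

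**Figure D2:**
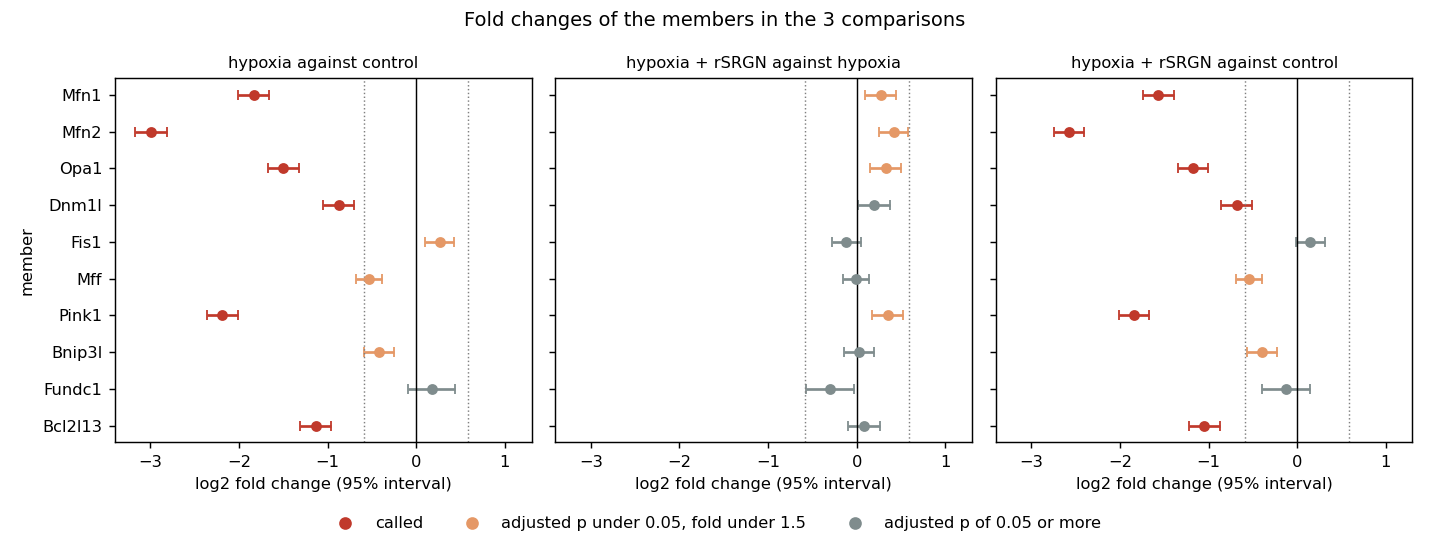
Log2 fold changes of the 10 genes are plotted with 95% intervals on the horizontal axis for the 3 comparisons, with the genes on the vertical axis. The solid line marks 0 and the dotted lines a fold of 1.5. In both comparisons with control the intervals of Mfn2, Pink1, Mfn1, Opa1 and Bcl2l13 lie wholly beyond the lower dotted line, and in hypoxia + rSRGN against hypoxia every estimate lies between the dotted lines.

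Levels of different genes were compared as CPM per kilobase of merged exons, which reads low for a gene annotated with long or rarely used exons. In control the order ran from Mfn2 (164.7 CPM per kilobase) through Pink1 (86.7) and Fis1 (45.8) to Mfn1 (31.4) and Dnm1l (31.3), whose libraries overlapped. Bnip3l (22.8), Opa1 (18.5) and Mff (13.8) followed, with Fundc1 (10.6) and Bcl2l13 (9.14) last and not apart from each other. The order in hypoxia was different. Fis1 led with a level of 55.0 CPM per kilobase, above all others in each library. Mfn2 (20.7), Pink1 (19.0), Dnm1l (17.1) and Bnip3l (17.05) came next, and each of these overlapped its neighbour in the order. Fundc1 (11.98) stood above Mff (9.53) and Mfn1 (8.82), which overlapped, and Opa1 (6.54) and Bcl2l13 (4.17) came last. In hypoxia + rSRGN the first 5 places were Fis1 (50.7), Mfn2 (27.6), Pink1 (24.2), Dnm1l (19.5) and Bnip3l (17.3), all apart from their neighbours. Mfn1 (10.6), Fundc1 (9.72), Mff (9.47) and Opa1 (8.20) overlapped in sequence, above Bcl2l13 (4.42).

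The make-up of the 10 transcripts within a library was thus different, as shares of their summed CPM per kilobase show, and such shares do not depend on how libraries are scaled to each other. The fusion genes made up 49.3% ± 0.963 (SD, n = 3) in control, 21.2% ± 1.68 in hypoxia and 25.5% ± 0.401 in hypoxia + rSRGN. The fission genes made up 20.9% ± 1.37, 48.1% ± 3.06 and 43.8% ± 0.637 in the same order. The shares of the mitophagy genes overlapped between all groups, at 29.7% ± 0.433, 30.7% ± 1.38 and 30.6% ± 0.696. The fusion share was lower and the fission share higher in hypoxia, with no overlap between the groups. A share depends on the other genes in the sum, and the summed level of the fission genes was itself lower in hypoxia, at 81.6 ± 4.62 CPM per kilobase against 90.9 ± 3.39 in control (SD, n = 3). The summed level of the fusion genes was 36.0 ± 3.30 against 214.6 ± 11.5, and that of the mitophagy genes 52.2 ± 2.96 against 129.3 ± 6.63. Mfn2 alone went from 37.8% ± 1.63 in control to 12.2% ± 0.912 in hypoxia, and Fis1 from 10.5% ± 0.302 to 32.4% ± 3.87. Within the mitophagy genes, Pink1 made up 19.9% ± 0.858 in control and 11.2% ± 0.902 in hypoxia, while Bnip3l made up 5.25% ± 0.444 and 10.0% ± 0.190. These shares are a description and carry no test.

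**Figure D3:**
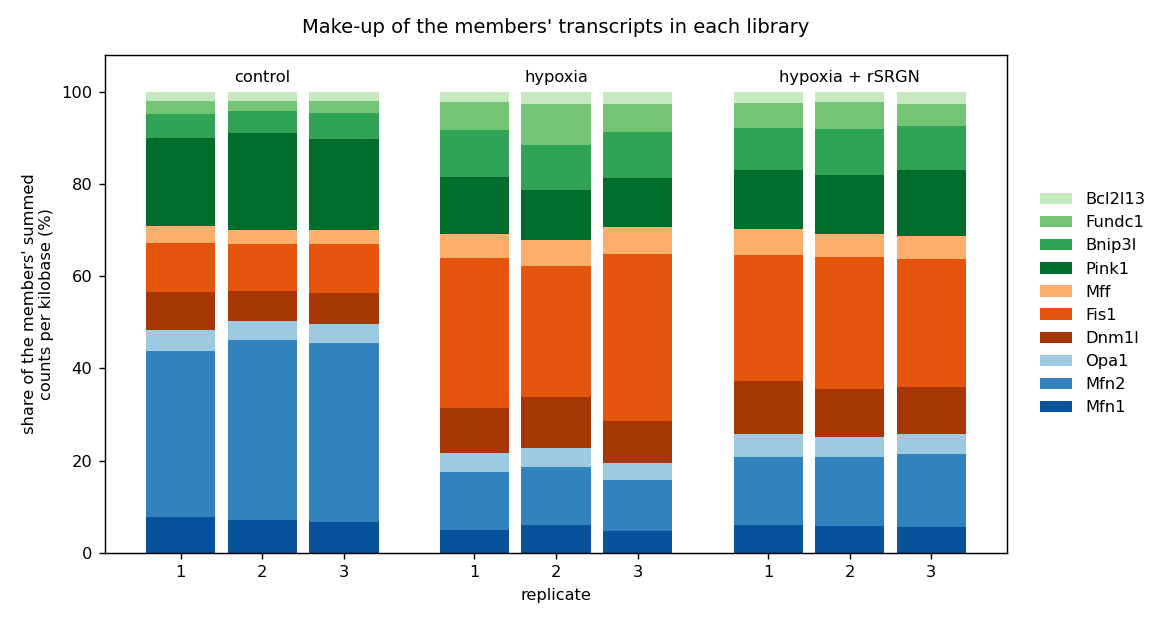
Each bar is 1 library, with the share of the 10 genes' summed counts per kilobase in percent on the vertical axis from 0 and replicates grouped by condition on the horizontal axis. Blue marks fusion, orange fission and green mitophagy genes. The blue part covers 48.3% to 50.2% in control, 19.4% to 22.7% in hypoxia and 25.1% to 25.8% in hypoxia + rSRGN.

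Ratios of transcripts that act in the same process were tested within libraries, as 12 tests of 4 ratios in 3 comparisons with an exact two-sided permutation test, which cannot go below p = 0.1 with 3 libraries against 3. The ratio of Mfn2 to Mfn1 was 4.60 to 5.73 in control and 2.14 to 2.60 in hypoxia, a difference of -1.15 on the log2 scale (exact permutation p = 0.1, adjusted 0.133). The fission adaptor Mff stood at 0.282 to 0.323 of the level of Fis1 in control and at 0.162 to 0.201 in hypoxia (log2 difference -0.79, exact permutation p = 0.1, adjusted 0.133). In both ratios the groups did not overlap. The ratio of Pink1 to Bnip3l was 3.45 to 4.33 in control and 1.07 to 1.19 in hypoxia, so that both transcripts were near the same level per kilobase there (log2 difference -1.77, exact permutation p = 0.1, adjusted 0.133). Bnip3l to Bnip3, a pair of related BH3-type receptors, stood at 0.754 to 1.66 in control and at 3.03 to 3.49 in hypoxia (log2 difference 1.62, exact permutation p = 0.1, adjusted 0.133). Bnip3 itself spread widely within control, at 29.7, 50.03 and 77.1 CPM.

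**Figure D4:**
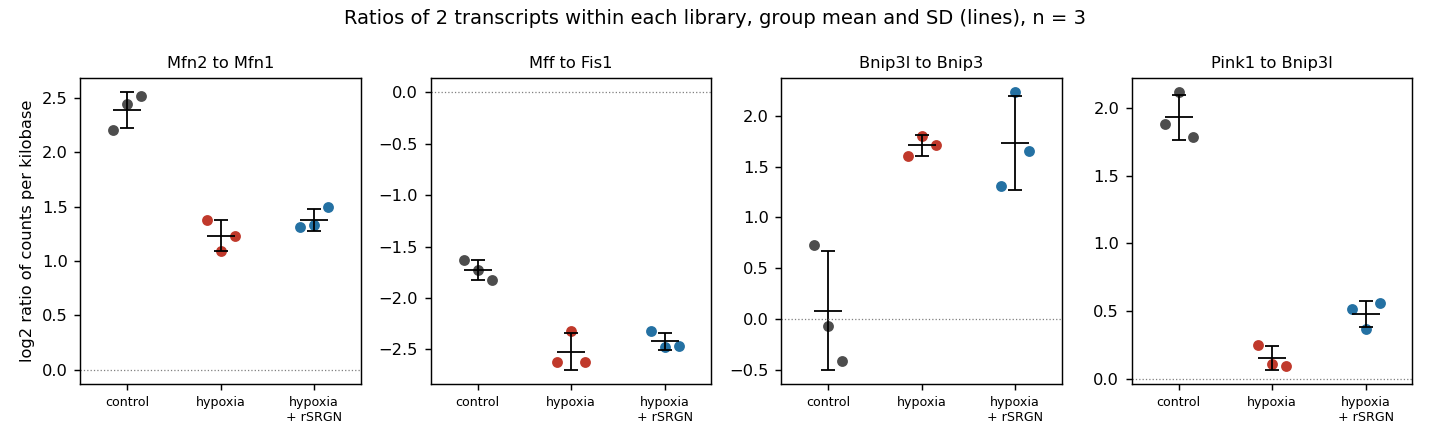
Log2 ratios of counts per kilobase of 2 transcripts within a library are on the vertical axis, with groups on the horizontal axis. Points are libraries and lines the mean and SD (n = 3). Control stands apart from both hypoxic groups in all 4 panels, and the control spread of Bnip3l to Bnip3 (SD 0.582) is the widest of that group.

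Other genes of the same processes gave a mixed picture in hypoxia. Of 26 other fusion, fission and inner membrane shape genes, 25 were tested, and 2 were called higher and 13 lower, with a median log2 fold change of -0.63. All tested genes gave 26.4% called higher and 25.1% called lower. Of 26 other mitophagy genes, 25 were tested, and 0 were called higher and 8 lower, with a median of -0.15, so that the share called lower was near that of all tested genes. By unadjusted p below 0.05 in edgeR's test 5 of these mitophagy genes were higher, against 38.1% of all tested genes, and DESeq2 also called 0 higher. Of 6 genes of mitochondrial transport along microtubules, 5 were called lower (Rhot1, Rhot2, Trak1, Trak2 and Kif5b), with a median of -0.94 over the 6. The sixth, the axonal anchor Snph, had a mean of only 0.746 CPM, and these 6 are named after their values were seen. As a setting for these counts, all 30 nuclear genes for respiratory chain subunits were called lower, with a median of -1.47, and of 16 genes of the hypoxia response 6 were called higher and 7 lower.

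The genes named from these lists were among those with the largest changes or were near relatives of the 10. Bnip3 was at 13.3, 10.9 and 11.4 CPM in hypoxia, below all control libraries (log2 fold change -2.14, SE 0.232, edgeR adjusted p = 3.3e-08). Mtfp1, an inner membrane protein that promotes fission, was at 14.8, 18.1 and 18.4 CPM in control and at 2.90, 3.35 and 2.61 CPM in hypoxia (log2 fold change -2.53). Pptc7, a mitochondrial phosphatase that restrains the receptors BNIP3 and BNIP3L, was at 63.7, 56.5 and 53.5 CPM in control and at 12.4, 14.97 and 11.7 CPM in hypoxia (log2 fold change -2.15). Both of these fell, with edgeR adjusted p values of 1.76e-11 and 2.59e-13.

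Among the 56 tested genes of these 3 lists, 2 were called higher. Mtfr2, a fission regulator, was at 4.81, 4.74 and 3.14 CPM in control and at 6.39, 10.00 and 8.17 CPM in hypoxia (log2 fold change 0.95, edgeR adjusted p = 0.000145). Inf2, a formin that builds actin around fission sites at the endoplasmic reticulum, was at 47.7, 57.5 and 47.8 CPM in control and at 87.2, 74.3 and 87.4 CPM in hypoxia (log2 fold change 0.70, edgeR adjusted p = 2.61e-07). Oma1, the protease that cleaves OPA1 under stress, was at 18.3 to 22.0 CPM in control and at 8.44 to 9.88 CPM in hypoxia and fell by 1.12 on the log2 scale (edgeR adjusted p = 6.42e-08). Usp30, a deubiquitinase of the outer membrane, overlapped between the groups (log2 fold change 0.061, 95% interval -0.158 to 0.281, edgeR adjusted p = 0.617).

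**Figure D5:**
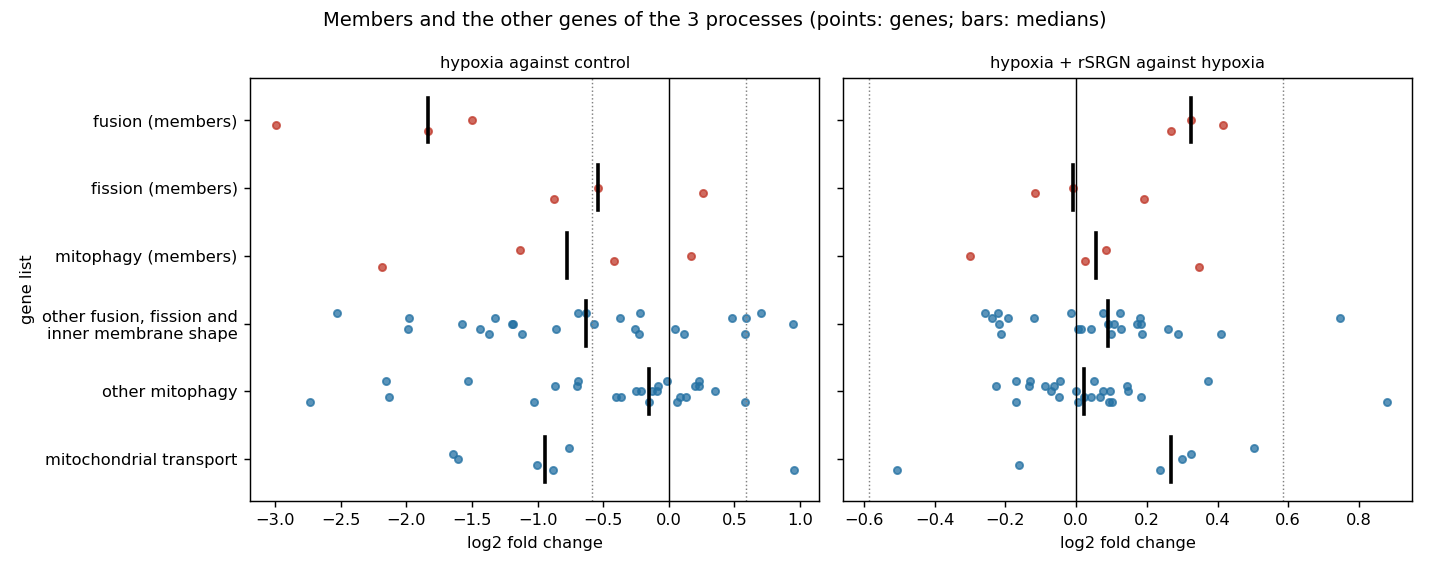
Each point is the log2 fold change of a gene on the horizontal axis, for the 10 genes by process (red) and for the other genes of the same processes and of mitochondrial transport (blue), with a bar at each median. Dotted lines mark a fold of 1.5. In hypoxia against control the medians run from -1.83 for the fusion genes to -0.15 for the other mitophagy genes, while in hypoxia + rSRGN against hypoxia they lie between -0.009 and 0.33.

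With rSRGN added during hypoxia, transcripts of the 3 fusion genes and of Pink1 were 1.20 to 1.33-fold higher than in hypoxia alone, and the other 6 genes had an adjusted p above 0.05. By the full rule 0 of the 10 genes were called in either direction, where 0.859% of all tested genes were called lower and 2.27% higher. DESeq2 also called 0 of the 10. At an unadjusted p below 0.05 in edgeR's test 5 were higher and 1, Fundc1, was lower, against 15.9% and 13.5% of all tested genes. By the adjusted p alone 4 genes were higher (Mfn1, Mfn2, Opa1 and Pink1) and 0 lower, against 10.5% and 6.11% of all tested genes, and DESeq2 gave 4 by this rule as well. The same 4 genes had no overlap between the groups on the higher side and 0 genes on the lower side, against 16.5% and 15.5% of all tested genes. All 4 differences lay under the fold limit. Of the 525 genes called among all tested genes 72.6% were higher. This split was 80.7% with RLE size factors, 81.5% with DESeq2, 66.9% with library size alone and 57.9% with upper quartile factors. Without hypoxia replicate 3 the genes called were 321.

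Mfn2 was 1.33-fold higher with rSRGN (log2 fold change 0.42, SE 0.081, 95% interval 0.248 to 0.583, edgeR adjusted p = 0.0014), and Pink1 1.27-fold higher (0.35, SE 0.084, edgeR adjusted p = 0.00688). Both held an adjusted p below 0.05 in all 15 alternative fits. Opa1 was 1.25-fold higher (0.33, SE 0.084, edgeR adjusted p = 0.0108), and Mfn1 1.20-fold higher (0.27, SE 0.084, edgeR adjusted p = 0.0321). For these 2 genes both the size and the adjusted p changed with the libraries fitted. Over the 15 alternatives the log2 fold change was 0.249 to 0.395 for Opa1 and 0.197 to 0.374 for Mfn1. The adjusted p of Opa1 was 0.0685 without hypoxia replicate 3 and 0.0942 without hypoxia + rSRGN replicate 1. Without hypoxia replicates 1 and 3 the edgeR adjusted p of Mfn1 was 0.0879 and 0.17. Without hypoxia + rSRGN replicates 1 and 2 it was 0.127 and 0.107. It was 0.053 when only the groups compared were fitted, and 0.000956 without hypoxia replicate 2. Beside these values, 19 of the 20 cardiomyocyte markers were called higher with rSRGN, against 2.27% of all tested genes. The median log2 fold change of the markers was 0.77, and the part of this in the 4 differences was not tested.

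For the other 6 genes the 95% intervals of the log2 fold change show how large a difference could have been missed. Dnm1l was at 109.7, 99.6 and 95.7 CPM with rSRGN, overlapping hypoxia, with a log2 fold change of 0.19 (95% interval 0.016 to 0.37, edgeR adjusted p = 0.131). Without hypoxia replicate 2 its adjusted p was 0.0234. Fis1 was at 86.1, 88.6 and 86.2 CPM (log2 fold change -0.12, 95% interval -0.283 to 0.050, edgeR adjusted p = 0.36). Its log2 fold change was -0.203 without hypoxia replicate 2 (edgeR adjusted p = 0.0456) and -0.045 without hypoxia replicate 3. Mff was at 97.8, 90.8 and 88.7 CPM, with an interval of -0.158 to 0.139 around -0.009. Bnip3l was at 64.1, 69.7 and 67.1 CPM, with an interval of -0.144 to 0.196 around 0.026. Bcl2l13 was at 41.1, 37.1 and 42.4 CPM, with an interval of -0.094 to 0.265 around 0.085. Its log2 fold change was 0.022 without hypoxia replicate 1 and 0.142 without hypoxia + rSRGN replicate 2. For these genes the libraries of the groups interleaved. Fundc1 was at 23.5, 24.8 and 20.3 CPM, with an interval of -0.571 to -0.029 around -0.30 (edgeR adjusted p = 0.126), and hypoxia replicate 2 stood far above all other libraries. Without that library its log2 fold change was -0.106 (edgeR adjusted p = 0.592).

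Within libraries, the ratio of Pink1 to Bnip3l was 1.29 to 1.47 with rSRGN, above that in all hypoxia libraries (log2 difference 0.33, exact permutation p = 0.1, adjusted 0.133). The ratio of Mfn2 to Mfn1 was 2.48 to 2.82 and overlapped with hypoxia (exact permutation p = 0.3), as did that of Mff to Fis1 at 0.180 to 0.199 (exact permutation p = 0.5). Bnip3l to Bnip3 stood at 2.48 to 4.69 (exact permutation p = 0.9). Among the 56 tested other genes of fusion, fission, shape, mitophagy and transport, 0 were called in either direction by edgeR or DESeq2, while 10 were higher and 4 lower at an unadjusted p below 0.05, against 15.9% and 13.5% of all tested genes. By the adjusted p alone 5 of the 56 were higher and 1 lower, against 10.5% and 6.11% of all tested genes, and DESeq2 gave 9 in both directions together.

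Against control, the hypoxia + rSRGN cultures had the same 6 genes called lower as the hypoxia cultures and none called higher, where 24.7% and 24.1% of all tested genes were called. With DESeq2 the count of genes called higher was also 0, as was the count at an unadjusted p below 0.05 (35.6% of all tested genes). This comparison shares its control libraries with the first one, so the counts are not independent. Log2 fold changes against control were -2.58 for Mfn2, -1.84 for Pink1, -1.57 for Mfn1, -1.17 for Opa1, -1.05 for Bcl2l13 and -0.68 for Dnm1l, with edgeR adjusted p values of at most 2.56e-07. Mff (-0.55) and Bnip3l (-0.40) again stayed under the fold limit, with edgeR adjusted p values of 5.41e-07 and 0.000179. Fis1 lay above all control libraries, although its log2 fold change of 0.15 had an edgeR adjusted p of 0.106. That p was below 0.05 in 3 of 15 alternatives, at 0.0402 with library size alone (0.195), 0.0149 with upper quartile factors (0.239) and 0.0214 with only the groups compared (0.166). Fundc1 overlapped with control (log2 fold change -0.13, 95% interval -0.397 to 0.142).

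The genes whose pattern over the 9 libraries was most like that of Mfn2, the gene with the deepest change of the 10 in hypoxia, were Pkp2, Pygb and Eno3. Likeness was measured as the root mean square difference of centred log2 CPM, over 16761 other tested genes. It was 0.069 for Pkp2, a desmosomal protein, 0.069 for Pygb, a glycogen phosphorylase, and 0.071 for Eno3, the muscle enolase. Their log2 fold changes in hypoxia against control were -2.98, -3.02 and -2.95. Values near that of Mfn2 follow from picking genes by likeness over the same libraries and are no separate result. The nearest of the other 9 genes was Pink1, at 0.368 and place 394 in that order.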

How the data were processed

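The 9 libraries were poly(A)-enriched RNA sequenced on an Illumina NovaSeq, and each was put in its group from its title and treatment label. The authors deposited whole-number counts of fragments for each gene that were not normalized. Its header names featureCounts 2.0.1, paired-end counting over exons of GENCODE mouse release 25 (mm10) and no strand option, and the submitters' processing notes name HISAT2. All 9 columns of counts were used, and 0 were left unused. Coordinates are those of the deposited table (1-based), and exons were merged per gene to give lengths.

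The counts were fitted by edgeR 4.0.16 in R 4.3.3 (filterByExpr, TMM, 1 mean per group over all 9 libraries, quasi-likelihood test, Benjamini-Hochberg adjustment over 16762 genes). Calls required an adjusted p under 0.05 together with a 1.5-fold difference or more. CPM use TMM-scaled totals. The fit was run on simulated counts with known changes in few genes. In hypoxia against control 8644 of the 16762 genes were called, a setting which that check does not cover. The 10 genes, the other lists and the rule for naming genes were chosen with earlier results of these data known. From the lists, up to 4 called genes with the largest rise and fall per comparison were named, with no overlap and a mean of at least 1 CPM, and Bnip3, Oma1 and Usp30 in any case. A further gene that the rule names is not reported here. Alternatives were DESeq2 1.42.0, other scalings and filters, no fold limit, only the groups compared, no mitochondrially encoded, rRNA and heat shock genes, a block for the replicate number, and the omission of single libraries. Log2 CPM for likeness used a prior count of 2. Motifs were searched in Python 3.11.15 and plots drawn with matplotlib 3.10.9. The depth limits genes with low counts, and fold changes of well-counted genes are limited by the spread between 3 libraries.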

Additional observations from a re-analysis of the deposited data

How the results depend on the processing

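The counts of the 10 genes called were 6 for hypoxia against control under every alternative except no fold limit (9) and a filter of at least 1 count (7), and leaving out each library in turn gave 6 to 6. For hypoxia + rSRGN against control they were 6 to 8, and 6 to 7 with a library left out, the 7 without hypoxia + rSRGN replicate 1, where Mff (-0.587) passed the fold limit. For hypoxia + rSRGN against hypoxia 0 were called under all alternatives except adjusted p with no fold limit, which gave 4 of the 10 genes and 2790 genes in all, against 525. Leaving out a library there gave 321 (without hypoxia replicate 3) to 699 genes in all. With the replicate block, which rests on shared numbers only (same-numbered deviations correlated at -0.037 to 0.021), the genes called were 8550, 495 and 8096 for the 3 comparisons in the order given in the report, against 8644, 525 and 8183, and 6, 0 and 6 of the 10 genes.

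Values near 0 changed sign. Fundc1 in hypoxia against control ranged from -0.022 (without hypoxia replicate 2) to 0.269 with a library left out, and was 0.305 with upper quartile factors. For hypoxia + rSRGN against hypoxia, Mff (-0.009) was 0.020 with RLE size factors, 0.003 and 0.004 with filters of at least 1 count in all and 10 counts in every library, 0.007 with only the groups compared, 0.001 without mitochondrially encoded, rRNA and heat shock genes, 0.019 with DESeq2, and -0.049 to 0.030 with a library left out. Bnip3l (0.026) was -0.021 with upper quartile factors and -0.002 to 0.061 with a library left out. The log2 ratio of Bnip3l to Bnip3 (0.024) was -0.226 to 0.235 with a library left out. The cause was not tested. Upper quartile factors moved the median log2 fold change of all genes in hypoxia against control from 0.054 to 0.191, and library size alone to 0.122. Fis1 in that comparison stayed above 0 under all 15 alternatives (0.193 to 0.404).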
